A study of Mus musculus with 2 samples.

Results

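Olfactory receptor genes of mouse chromosome 7 are described here by the H3K9me2 peaks that lay in and beside them in embryonic cortex. The members were all genes of chromosome 7 whose symbol starts with Olfr in the RefSeq annotation of GRCm38.p6 (mm10). There were 294 of them, 239 protein-coding and 55 pseudogenes, out of 1427 Olfr genes on chromosomes 1 to 19 and X. Chaining neighbours less than 500 kb apart gave 8 clusters, which cover 5.66 Mb or 3.97% of chromosome 7 (counted from 3 Mb on) and hold 11.8% of its coding genes. The rule used positions and names alone and no measured value, but it was chosen with earlier results of these data known.

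The samples were 2 libraries from cortex of C57BL/6 embryos at embryonic day 15.5, 1 from a wildtype and 1 from a TBC1D3-transgenic genotype, each precipitated with an antibody against H3K9me2. TBC1D3 is a hominoid gene, and both libraries share strain, stage and tissue. The promoter that drives the transgene and the number of embryos behind a library are not given in the sources used here. After filtering, 26735120 wild-type and 20697113 transgenic ChIP tags remained, per the file headers. With 1 library per genotype there is no replicate and no test between genotypes. Every interval below is an exact 95% interval that covers counting error within these libraries alone.

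Olfactory receptors are G protein-coupled receptors that detect odorants in the nasal epithelium. A mature sensory neuron expresses a single receptor allele, and the other receptor genes stay silent under heterochromatin marks on histone H3 lysine 9. The methyltransferases G9a and GLP, encoded by Ehmt2 and Ehmt1, place most H3K9me2, and the series title links TBC1D3 to G9a in neural progenitors. The comparison thus asks where H3K9me2 peaks lay in receptor clusters, in a tissue outside the olfactory epithelium, with and without the transgene. The lists hold narrow calls, with broad calling off, so a span without a peak is not shown to lack the mark. The mouse class I receptors, the fish-like branch of the family, are known to lie together on this chromosome in a single cluster around the beta-globin genes. Class II receptors make up the other clusters.

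The receptor clusters held 15 transgenic peaks and 0 wild-type peaks. The count rests on weak peaks, as does that of the rest of chromosome 7. Inside the clusters 6 of the 15 transgenic peaks (40.0%) had a −log10 p of 5 or more, as did 87 of the other 304 (28.6%). A fold of at least 5 was reached by 0 peaks inside and 10 in the rest. When as many transgenic as wild-type peaks were taken genome-wide, by lowest q, 1 remained inside and 35 in the rest. The density ratio was then 0.690 (0.0170 to 4.11). Inside the clusters the wild type had 0 peaks each time. The transgenic density inside the clusters was 2.65 peaks per Mb (interval 1.48 to 4.37), and in the rest of chromosome 7 it was 2.22 per Mb (304 peaks in 137 Mb). The ratio of these densities was 1.19 (0.659 to 1.998), so a difference from the rest of the chromosome was not detectable. At the density of the rest of the chromosome the clusters would hold 12.6 transgenic peaks. For the wild type that density was 0.373 per Mb, which gives 2.11 peaks in the clusters. A count of 0 was taken to allow 3 peaks or 0.530 per Mb, which is 1.42 times the density of the rest of the chromosome. The exact interval reaches further, to 0.652 per Mb and a ratio of 1.81. A lack of wild-type peaks in the clusters was therefore not detectable with so short a wild-type list.

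The transgenic count of 15 was 5 times the 3 wild-type peaks that a count of 0 was taken to allow over all clusters. That is not a lower bound. With the counting error of both counts, the exact interval of the transgenic to wild-type ratio begins at 3.59. In the rest of chromosome 7 the transgenic list was 5.96 times (4.42 to 8.19) as long as the wild-type list. The intervals overlap, so a difference between the clusters and the rest of the chromosome in this respect was not shown. The lists were called separately, with wild-type fragments extended to 57 bp and transgenic ones to 111 bp, and how much of the gap between the lists comes from this was not tested.

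The cluster with most genes ran from Olfr543 to Olfr692 (chr7:102476773-105369317, GRCm38) and is the one that surrounds the beta-globin genes. It spans 2.89 Mb, holds 158 of the 294 Olfr genes (126 coding and 32 pseudogenes) and contained 7 transgenic peaks (2.81 to 14.4). The density of the rest of the chromosome gives 6.43. The other 7 clusters together held 8 transgenic peaks in 2.76 Mb, and the ratio of the densities was 0.836 (0.258 to 2.64), so the class I cluster did not stand apart detectably from the others.

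Among the other clusters, 52 genes from Olfr467 to Olfr519 (chr7:107814586-108894405) held 3 transgenic peaks, where the rest of the chromosome gives 2.40. The distal cluster of 25 genes from Olfr522 to Olfr542-ps1 (chr7:140162010-140722212) also held 3, where 1.25 would be given. Its density of 5.36 per Mb had an interval of 1.10 to 15.7, which includes the density of the rest of the chromosome. The 28 genes from Olfr693 to Olfr716 (chr7:106677534-107148329) held 1 peak, and so did the 9 genes from Olfr1344 to Olfr1350 (chr7:6439902-6570919). No transgenic peak lay among the 18 genes from Olfr310 to Olfr292 (chr7:86268730-86695384), where 0.949 would be given, or in the pairs Olfr291 and Olfr290 (chr7:84853571-84916728) and Olfr520 and Olfr521 (chr7:99735145-99768130). In every one of the 8 clusters the interval of the transgenic count included the number given by the rest of the chromosome.

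**Figure D1:**
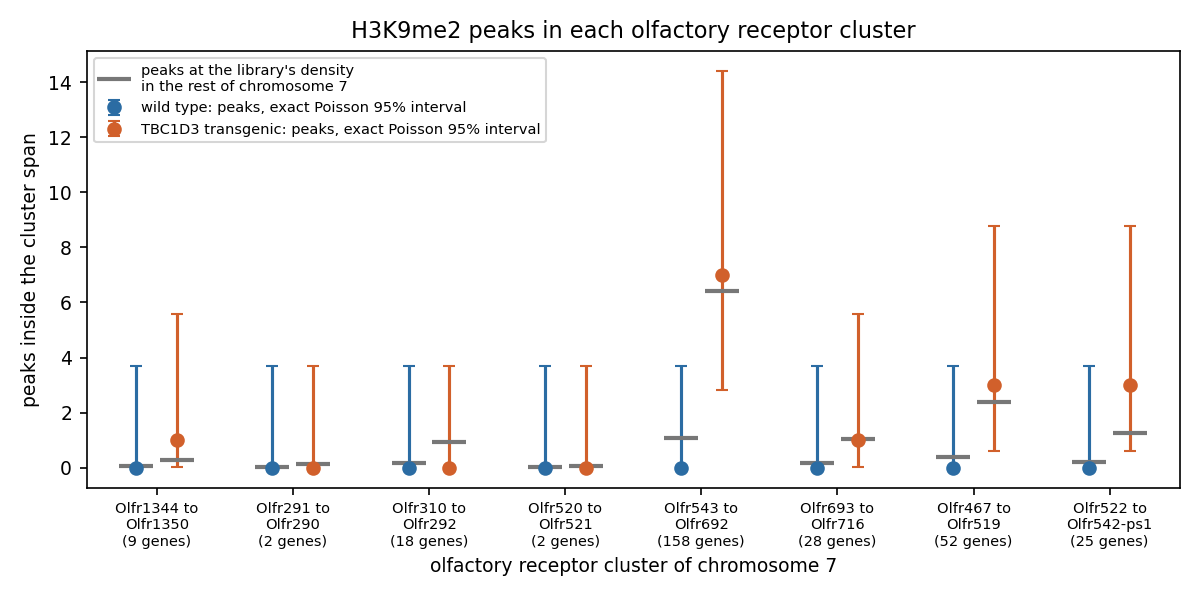
Number of H3K9me2 peaks (y axis) inside each of the 8 olfactory receptor clusters of chromosome 7 (x axis, named by first and last gene), for the wild-type and the transgenic library, with exact Poisson 95% intervals. Grey dashes give the number at each library's density in the rest of chromosome 7; the wild type has 0 peaks in every cluster, and the class I cluster from Olfr543 to Olfr692 has 7 transgenic peaks beside a dash at 6.43.

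Single genes were then examined, and a gene was counted when a peak lay in its body or within 2 kb of it. Of 294 Olfr genes, 5 had a transgenic peak (1.70%, interval 0.554 to 3.92) and 0 a wild-type peak (interval up to 1.25%). The 5 were Olfr554, Olfr694, Olfr513, Olfr529-ps1 and Olfr552. Among all 2025 coding genes of chromosome 7, 3.9% had a transgenic and 0.691% a wild-type peak, and the shares over all coding genes of the genome were 5.69% and 0.911%. Coding Olfr genes alone gave 4 of 239, or 1.67%, and pseudogenes 1 of 55.

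The shares are not like for like, since an olfactory receptor gene is short. The coding members have a median length of 954 bp, against 12937 bp for the other coding genes of chromosome 7, and 83.3% of their lengths are multiples of 3, so most models hold the coding length. The bodies and 2 kb flanks of the Olfr genes cover 1.61 Mb, and the density of the rest of the chromosome gives 3.57 transgenic and 0.599 wild-type peaks there. The 5 transgenic and 0 wild-type peaks seen are near these numbers. Of the 231 other coding genes of chromosome 7 that are 500 to 2000 bp long, 0 had a transgenic or a wild-type peak (interval up to 1.58%). These genes lie far from peaks, at a median of 2388 kb from a transgenic and 14284 kb from a wild-type peak. Over the genome 7 of 1343 such genes had a transgenic peak (0.521%). Neighbouring genes of a cluster share their surroundings and are not independent of each other.

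Olfr554 was the single member with a peak inside its gene body. The gene is a coding receptor of the class I cluster (gene ID 258322, chr7:102640248-102641201), and the peak spans chr7:102640327-102640437, so it lies within the annotated coding gene. It rested on 6 transgenic fragments, with a fold of 3.56 and a q of 0.206 as the authors listed them. Olfr694, the second gene of its cluster (gene ID 258444), had a peak 98 bp beyond its end of higher coordinate, at chr7:106689827-106689941. That peak had 7 fragments, a fold of 4.34 and a q of 0.0895.

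Olfr513 (gene ID 258718, chr7:108754858-108755787, plus strand) had the strongest of the 15 peaks, at chr7:108754479-108754589. It rested on 8 fragments, with a fold of 4.53 and a q of 0.0742. The peak lay upstream, with its edges 269 and 379 bp before the annotated start. Olfr552 (gene ID 259106, chr7:102604356-102605309, plus strand) had a peak 1.48 kb beyond its end, at chr7:102606786-102606952, with 6 fragments, a fold of 3.52 and a q of 0.216. The pseudogene Olfr529-ps1 (chr7:140368563-140368941) had a peak 851 bp away, with 8 fragments and a fold of 4.29. Just outside the 2 kb limit lay Olfr1349, at 2.40 kb from its peak, and then Olfr541 at 3.42 kb.

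The start regions of the members with a peak within 2 kb are shown where the RefSeq table of 300-base windows (250 bases before to 50 after a start, GRCm38.p6) holds them, so that the sequence beside the peaks can be read. Both windows are on the plus strand, at chr7:108754608-108754907 for Olfr513 and chr7:102604106-102604405 for Olfr552. Capitals mark matches to TAATNA on either strand, a homeodomain-like core of the kind that is known from receptor promoters.
Olfr513: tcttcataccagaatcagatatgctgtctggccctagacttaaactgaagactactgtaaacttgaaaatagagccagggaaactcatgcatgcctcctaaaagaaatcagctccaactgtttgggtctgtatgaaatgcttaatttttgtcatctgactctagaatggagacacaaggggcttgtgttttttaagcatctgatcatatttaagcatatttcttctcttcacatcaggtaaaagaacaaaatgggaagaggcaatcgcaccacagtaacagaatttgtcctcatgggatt
Olfr552: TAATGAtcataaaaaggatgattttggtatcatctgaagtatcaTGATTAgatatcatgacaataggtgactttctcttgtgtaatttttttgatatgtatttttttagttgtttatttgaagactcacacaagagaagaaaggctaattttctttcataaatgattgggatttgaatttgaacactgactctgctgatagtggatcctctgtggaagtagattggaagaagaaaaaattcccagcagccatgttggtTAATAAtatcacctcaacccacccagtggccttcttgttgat
The peak of Olfr513 ended 19 bp before its window begins, and no peak overlapped the window of any of the 209 members that the table holds. In both windows the start codon ATG stands at base 251, so the annotated start is the start of the coding sequence. This was so for 160 of the 209 member windows (76.6%), and distances from an annotated start are then not distances from a measured transcription start.

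The start regions of the members were poorer in GC than those of genes other than Olfr genes, a property that the choice of members did not use. The windows are placed on different features, since 3.85% of the windows of genes other than Olfr genes have ATG at base 251. For the members the median GC content was 37.0% (21.3 to 56.3, with medians of single clusters from 33.0% to 45.0%). Over the 31903 windows of genes other than Olfr genes it was 53.3%. The median number of CpG dinucleotides was 1 against 8. TAATNA was found in 62.7% of member windows (55.7 to 69.3) and in 26.5% of all 32851 windows, Olfr windows included. CCCNNGGG, the core of an Olf/Ebf-like motif that reads alike on both strands, was found in 4.31% and 13.7%. TATAAA on either strand was found in 42.6% and 13.6%. TAATNA and TATAAA are made mostly of A and T, and CCCNNGGG of C and G. No windows of matched GC content were compared, so the part of base composition in these differences was not tested. Olfr windows of the other chromosomes were similar, with a median GC of 34.7% and TAATNA in 66.7%. Of the printed windows, Olfr552 has 3 matches to TAATNA and Olfr513 has 0. A match says that these letters occur in the window and nothing on binding.

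The remaining 10 transgenic peaks of the clusters lay more than 2 kb from every Olfr gene. Along the class I cluster, 4 of the 7 peaks fell within the first 250 kb. The first of these, at chr7:102596634-102596744, lay between Olfr551 (7.82 kb away) and Olfr552 (7.61 kb) and had 5 fragments and a fold of 2.96, the lowest of the 15. Those of Olfr552 and Olfr554 followed. The peak at chr7:102719357-102719467 lay between Olfr33 (4.95 kb) and Olfr559 (4.07 kb), with 5 fragments and a fold of 3.20. Next came a stretch of 699 kb without a peak.

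Further along the class I cluster, a peak at chr7:103418728-103418838 lay inside Usp17lc, a deubiquitinase gene, and 23.3 kb from its nearest receptor gene, Olfr605. It had 5 fragments and a fold of 3.02. Usp17lc has close copies in the same cluster (Usp17ld, Usp17le, Usp17lb and Usp17la), and whether reads could be split among them was not tested. The peak at chr7:103569864-103569982, of 7 fragments and fold 4.03, lay 4.59 kb upstream of Olfr616. The last, at chr7:104163105-104163215, lay inside Olfm5, an olfactomedin gene, 4.16 kb from Olfr647-ps1, with 7 fragments and a fold of 4.34. The 1206 kb from there to the end of the cluster at Olfr692 held no peak.

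The beta-globin genes, which encode the beta chains of haemoglobin and lie in the middle of the class I cluster, had no peak within 2 kb in either library. Hbb-bt was nearest to a transgenic peak at 243 kb, and Hbb-y was farthest at 282 kb. Of the 30 coding genes other than receptors inside the spans, 2 had a transgenic peak, Usp17lc and Olfm5, and 0 had a wild-type peak. That is 6.67% (0.818 to 22.1), an interval that includes the 3.9% of all coding genes of chromosome 7. The Trim and Ubqln genes inside the class I cluster had none within 2 kb. Over the genome 1 of 69 Trim genes (Trim54) had a transgenic peak (1.45%, interval 0.0367 to 7.81), and 0 of 6 Ubqln genes did (interval up to 45.9%). Both intervals include the 5.69% of all coding genes.

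**Figure D2:**
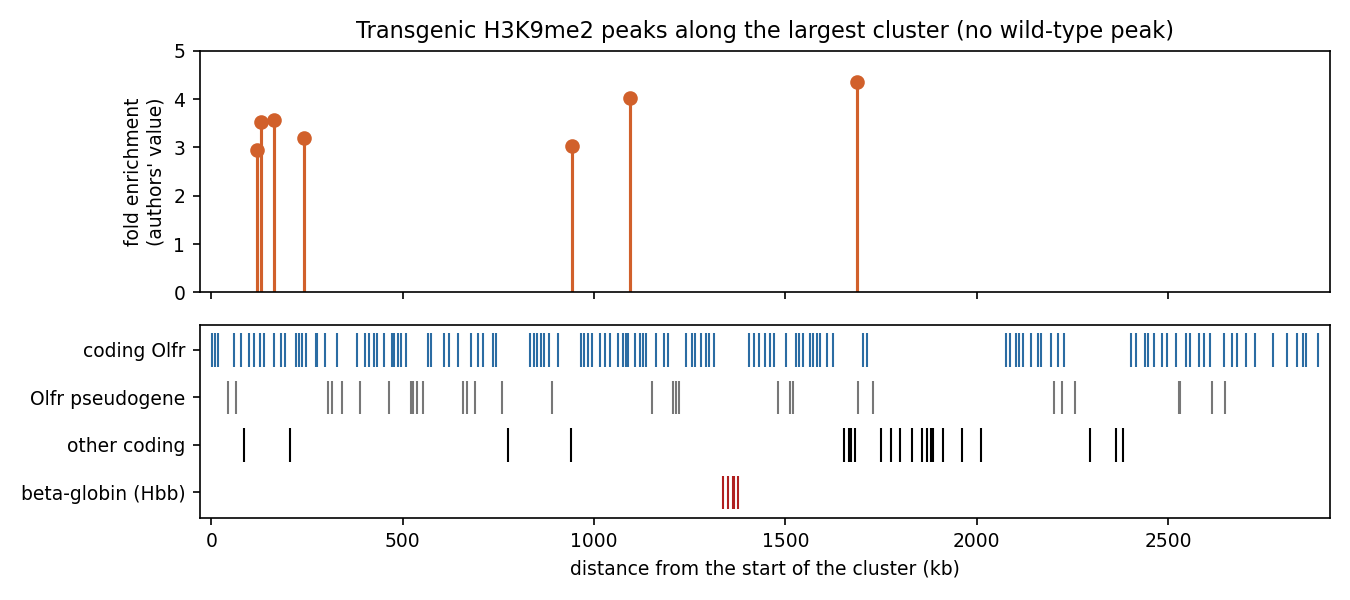
Transgenic peaks along the cluster from Olfr543 to Olfr692: the authors' fold enrichment of each peak (upper panel) and the positions of coding Olfr genes, Olfr pseudogenes, other coding genes and beta-globin genes (lower panel, 1 line per gene), against distance from the cluster's start in kb. Of the 7 peaks 4 lie in the first 250 kb, and none lies in the last 1206 kb or beside the beta-globin genes.

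In the cluster from Olfr467 to Olfr519 all 3 peaks lay beyond the first 776 kb. The peak at chr7:108590395-108590505 was 15.01 kb from Olfr505-ps1, with 7 fragments and a fold of 3.82. Another at chr7:108607261-108607371, with 7 fragments and a fold of 4.03, lay 4.94 kb upstream of Olfr506. The third was that of Olfr513. In the distal cluster the peak beside Olfr529-ps1 was followed by one at chr7:140484211-140484321, 4.85 kb from Olfr534-ps1, with 5 fragments and a fold of 2.97. The last lay at chr7:140708612-140708722, 3.42 kb beyond the end of Olfr541, with 7 fragments and a fold of 3.82. In the proximal cluster the peak at chr7:6522756-6522905, upstream of Olfr1349, had 6 fragments and a fold of 3.77.

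Most of the peaks were thus close to a receptor gene without lying in one. Of the 15, 12 were within 5 kb of an Olfr gene (80.0%, interval 51.9 to 95.7), and the genes with 5 kb on each side cover 53.2% of the spans. The interval includes that share, so a preference for the surroundings of genes was not shown. Olfr gene bodies cover 8.64% of the spans and held 1 peak, or 6.67%. Relative to the nearest receptor gene, 5 peaks lay upstream, 4 downstream and 1 inside. For the other 5, the nearest gene (Olfr694 or a pseudogene) had no start window and so no strand here.

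The peaks were small, as elsewhere on the chromosome. The median transgenic peak inside the clusters had 7 fragments (5 to 8), a fold of 3.82 (2.96 to 4.53) and a width of 111 bp, which is the fragment extension itself. In the rest of chromosome 7 the medians were 6 fragments (5 to 10), a fold of 3.52 (2.85 to 5.54) and a width of 119 bp. Among the 15 cluster peaks 4 carried a q of at most 0.1, as did 59 of the other 304. The lowest q was 0.0742 inside the clusters and 0.0673 in the rest of the chromosome. By the authors' own values 0 of the transgenic peaks of chromosome 7 thus had a q of 0.05 or less. All 51 wild-type peaks of the chromosome had a q of 0.643 or more. The wild-type densities and distances on chromosome 7 rest on these calls.

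Distances from the members to the nearest peak were long in the shorter wild-type list. For the 294 Olfr genes the distance to the nearest transgenic peak ranged from 0 to 718 kb, with a median of 171 kb. To the nearest wild-type peak it ranged from 917 kb to 31385 kb, with a median of 3038 kb. The other coding genes of chromosome 7 had medians of 392 kb and 2223 kb. Within 100 kb of a transgenic peak lay 36.7% of the Olfr genes and 20.04% of the other coding genes, whereas 0 Olfr genes and 4.31% of the others lay within 100 kb of a wild-type peak. Genes of 1 cluster share the same peaks, so these shares are a description. The 2 sets of genes are also spread differently along the chromosome. The stretch of 34.8 Mb before the first wild-type peak of chromosome 7 had 0.345 transgenic peaks per Mb. It holds 747 coding genes but 9 of the 294 Olfr genes. How much of the contrast in medians and shares comes from this stretch was not tested.

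The distal cluster had the lowest median distance to a transgenic peak, 32.4 kb, with 22 of its 25 genes within 100 kb. All 9 genes of the proximal cluster lay within 81.9 kb, with a median of 47.1 kb. The members farthest from a transgenic peak were Olfr521 (718 kb), Olfr520 (686 kb), and Olfr665, Olfr666 and Olfr667 of the class I cluster (623, 611 and 587 kb). At the edges of the class I cluster, Olfr543 lay 119 kb and Olfr692 135 kb from a transgenic peak. The members nearest to a wild-type peak were all in the distal cluster, led by Olfr542-ps1 (917 kb), Olfr541 (934 kb), Olfr45 (947 kb), Olfr540-ps1 (970 kb) and Olfr539 (971 kb). The farthest was Olfr1344 of the proximal cluster.

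**Figure D3:**
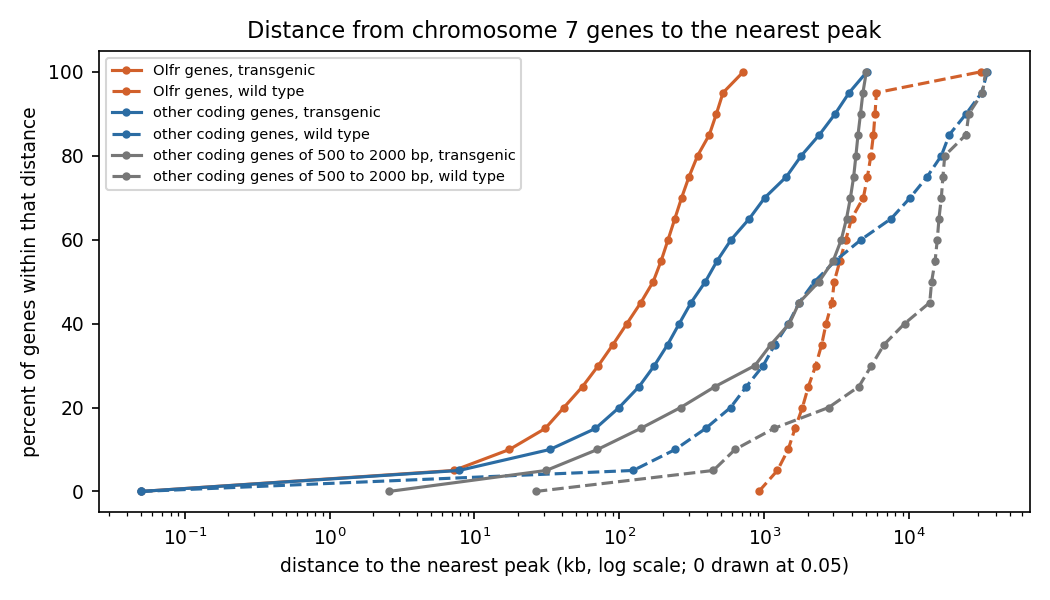
Percent of genes (y axis) within a given distance of the nearest peak (x axis, kb, log scale) for Olfr genes, other coding genes and other coding genes of 500 to 2000 bp on chromosome 7; solid lines are the transgenic library and dashed lines the wild type, and points are percentiles. The Olfr genes have a median of 171 kb in the transgenic and 3038 kb in the wild-type library, and no Olfr gene is nearer than 917 kb to a wild-type peak. The lines of other coding genes include those of the stretch before the first wild-type peak, where transgenic peaks were sparse.

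The wild-type list was empty over long stretches that hold the clusters. The clusters from Olfr543 to Olfr519, with 238 genes, lay in a stretch of 12.6 Mb (chr7:101072783-113721531) without a wild-type peak, the second longest of the 52 stretches between wild-type peaks of the chromosome. It held 25 transgenic peaks, 1.98 per Mb. The proximal cluster lay in the longest one, the first 34.8 Mb from 3 Mb on (chr7:3000001-37825763). Transgenic peaks were sparse there as well, with 12 peaks or 0.345 per Mb. The stretches are bounded by wild-type peaks and hold none by definition, and they were looked at after the counts were known.

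The proximal stretch also bears on the comparison with the rest of the chromosome. Beyond it, the clusters held 14 transgenic peaks at 2.53 per Mb and the rest of the chromosome 2.87 per Mb. The ratio was then 0.882 (0.476 to 1.503) in place of 1.19, so the side of 1 on which it falls depends on this stretch, and both intervals include 1. In the 1 Mb on each side of the clusters the transgenic density was 1.501 per Mb (20 peaks in 13.3 Mb), and the ratio of clusters to flanks was 1.77 (0.842 to 3.63).

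Receptor clusters are gene-rich, so gene-rich windows that hold Olfr genes were also set beside gene-rich windows without them. Such windows reach beyond the clusters, and Olfr genes are the majority of the coding genes in 27 of the 63 autosomal ones below. The values are therefore densities of windows and not of the clusters themselves. Among 1 Mb windows of the autosomes with more than 15 coding genes, the 63 windows with a coding Olfr gene held 2.05 transgenic peaks per Mb (1.71 to 2.43) and the 341 without held 1.31 (1.19 to 1.44). The ratio was 1.56 (1.27 to 1.90). On chromosome 7 alone the 11 windows with Olfr genes held 26 transgenic peaks, 2.36 per Mb, and the 37 without held 35, 0.946 per Mb, a ratio of 2.50 (1.44 to 4.27). Without the windows that start before the first wild-type peak of chromosome 7, that ratio was 1.28 (0.719 to 2.23), with an interval that includes 1, and the autosomal ratio was 1.48 (1.20 to 1.80). In the wild type the autosomal ratio was 0.749 (0.328 to 1.51), and the chromosome 7 windows with Olfr genes held 0 peaks. Olfr genes and other genes differ in GC content at their starts, as given above, and the part of base composition in the ratio was not tested. How much of each window can be read uniquely was not measured.

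**Figure D4:**
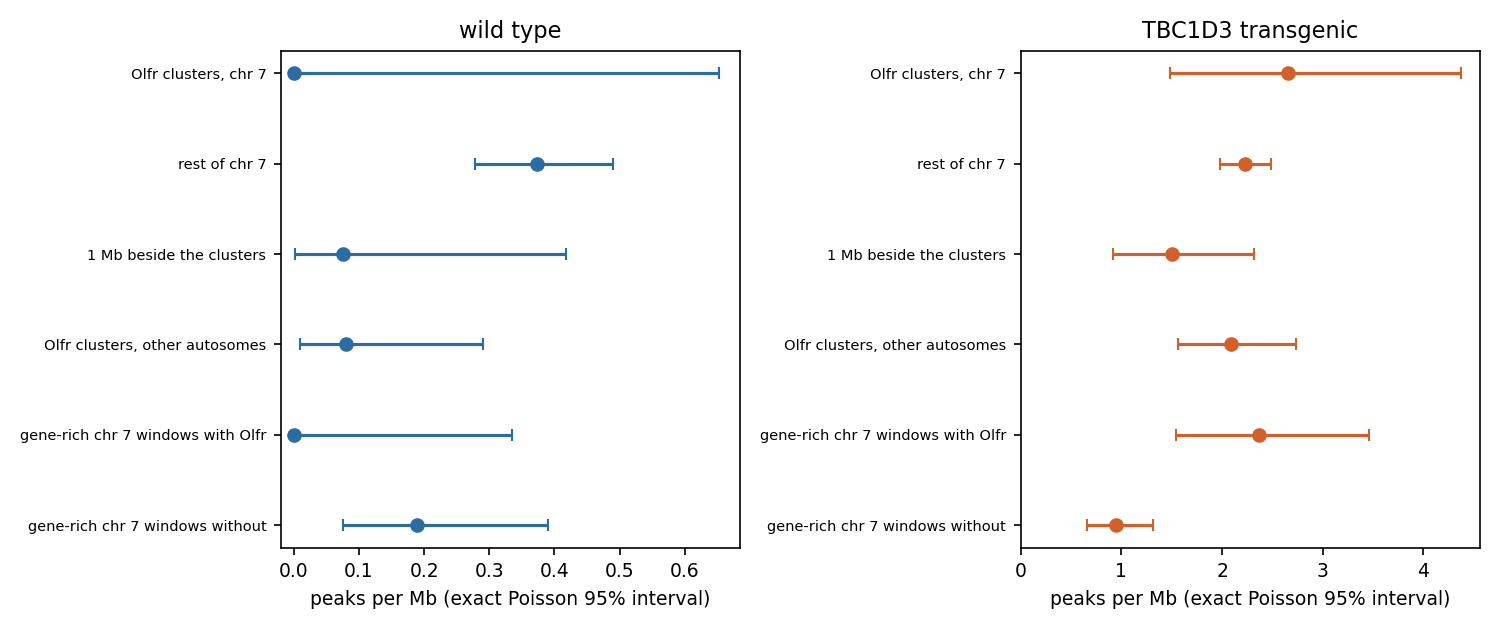
H3K9me2 peaks per Mb (x axis, exact Poisson 95% intervals) in the wild-type library (left) and the transgenic library (right), for the chromosome 7 receptor clusters, the rest of the chromosome, the 1 Mb beside the clusters, receptor clusters of other autosomes, and chromosome 7 windows with more than 15 coding genes with and without Olfr genes; the axes of the panels differ. The transgenic clusters sit at 2.65 and the rest of chromosome 7 at 2.22, with overlapping intervals.

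The same gene family elsewhere gave a scale for these values. On 17 other autosomes 59 clusters with 1125 Olfr genes cover 24.9 Mb and held 52 transgenic peaks, 2.09 per Mb, or 0.816 times (0.609 to 1.07) the rest of those autosomes. The chromosome 7 clusters had 1.27 times (0.664 to 2.29) that density, so a difference from the other clusters was not detectable. In the wild type the other clusters held 2 peaks, 0.261 times (0.0315 to 0.945) the rest of those autosomes. With neighbours chained at 1000 kb that ratio was 0.347 (0.0714 to 1.02), an interval that includes 1. At the density of 0.0803 per Mb in the other clusters the chromosome 7 clusters would hold 0.454 wild-type peaks. Chromosome 2, with the most Olfr genes (377), held 7 transgenic peaks in its clusters, 0.404 times (0.162 to 0.840) the rest of that chromosome. In the other direction, the clusters of chromosome 4 (30 Olfr genes, 0.577 Mb) held 6 transgenic peaks, 5.08 times (1.85 to 11.2) the rest of that chromosome. This was the highest ratio of any autosome with Olfr genes, and chromosome 4 was named after the values were seen. Of the 1133 Olfr genes on other chromosomes, 15 had a transgenic peak within 2 kb (1.32%, 0.743 to 2.17) and 1, Olfr1366, a wild-type peak. The share of 1.70% on chromosome 7 lies inside that interval.

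Genes that act in receptor choice and olfactory signalling were mostly without a peak. Of 35 such genes, which include Lhx2, Ldb1, the Ebf genes, the demethylase Kdm1a and the methyltransferases Ehmt1, Ehmt2 and Setdb1, 2 had a transgenic peak within 2 kb (5.71%, 0.700 to 19.2) and 0 a wild-type peak. The 2 were Ano2, a chloride channel of olfactory cilia with 9 peaks, and Rtp2, a chaperone that brings receptors to the membrane, with 1 peak 1.83 kb away. Omp, the olfactory marker protein gene of chromosome 7, lay 297 kb from the nearest transgenic and 2927 kb from the nearest wild-type peak. The share of 5.71% is close to the 5.69% of all coding genes.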

How the data were processed

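H3K9me2 ChIP-seq was available as 1 peak list per library. The authors ran MACS version 2.1.0.20150420 on each library with its own input as control, per the file headers (p cutoff 0.001, no model, broad calling off, wild-type fragments extended to 57 bp and transgenic ones to 111 bp). The names of the BAM files contain uni and dedup. BWA and mm10 are named in the submitters' processing notes, with no BWA version. The deposited pileup signal counts extended fragments over the summit, scaled by 0.951 in the wild type. The deposited fold is the ratio of pileup to local background, each plus 1. Significance is deposited as −log10 p and −log10 q from the caller. A header line says that q is not calculated, but the column holds values. All of these describe single peaks and come from the authors.

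Genes came from a RefSeq table of GRCm38.p6, without strand or exons, and start windows with strand from a second RefSeq table (209 of 294 members matched by gene ID). Genes starting before 3 Mb were left out. Peaks were counted inside a span at an overlap of at least 1 bp, and the rest of chromosome 7 ran from 3 Mb to its last gene or peak. Intervals are exact: Poisson for counts, Clopper-Pearson for shares, and conditional binomial for ratios (Python 3.11.15, scipy 1.17.1). A count of 0 was taken to allow 3 counts, where the exact interval reaches 3.69. Counting was tested on simulated peaks. The members and lists were chosen with earlier results of these data known. Named genes were those with a peak within 2 kb, those nearest to other cluster peaks, cluster edges, the 5 closest and 5 farthest per library, other coding genes of the spans with a peak, beta-globin genes, Omp and listed olfactory genes with a peak. Other genes of the spans (Usp17 copies) and Trim54 and Olfr1366, as single members of a count, were named after their values were seen. So was chromosome 4, as the highest ratio. Peak sequences were not analysed here.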

Additional observations from a re-analysis of the deposited data

How the results depend on the processing

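With 1 library per genotype no library could be left out, and the number of listed peaks limits every count. No paired analysis was possible because each genotype has 1 library and the labels carry no replicate numbers. Of 72 values under alternative settings 56 stayed within the main interval, or within 1.5 times of a main count, and 16 did not. The wild-type counts of 0 inside the clusters and beside Olfr genes stayed 0 under every setting run. Most of these settings remove peaks or narrow the regions and so could not raise a count of 0. Only the chaining gap of 1000 kb and flanks wider than 2 kb could. The wild-type values of 0 that could not change are among the 56. The 15 transgenic peaks inside the clusters became 6 with −log10 p limited to 5 or more, 0 at a fold of at least 5 (density ratio 0), and 1 when the transgenic list was shortened to the wild-type length, since these settings shorten the list. The 5 genes with a transgenic peak within 2 kb became 3, 0 and 1 under the same settings, and 1, 14, 19 and 65 with flanks of 0, 5, 10 and 50 kb. Set against 3 wild-type peaks, the transgenic to wild-type ratio inside the clusters became 2 under the p setting (exact interval from 1.18). It could not be given at a fold of at least 5, where the ratio in the rest of chromosome 7 was 1.43. Under the p setting the wild-type density ratio of clusters on other autosomes became 0 (interval up to 2.02), and that of gene-rich windows became 0.285. The latter was 0 for windows where most coding genes are Olfr genes (interval up to 0.737). For these, the cause was not tested. That last setting and the values beyond the first wild-type peak of chromosome 7 were chosen after seeing the data.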

Other observations

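Other clustered families give values to set beside those of the receptors. A transgenic peak within 2 kb was listed for 3.9% of the coding genes of chromosome 7, and for 0 of its 231 coding genes of 500 to 2000 bp other than Olfr genes. Of 275 vomeronasal receptor genes on chromosome 7, which detect pheromones, 1 (Vmn2r78) had a transgenic peak within 2 kb (0.364%, interval 0.00921 to 2.01) and 0 a wild-type peak. Over the genome 5 of 618 had a transgenic and 1 (Vmn2r82) a wild-type peak. Of 94 Zfp zinc finger genes on chromosome 7, 0 had a peak in either library (interval up to 3.85%). Over the genome, of 37 kallikrein genes (Klk) 1, Klk1b10-ps, had a transgenic peak (2.70%, interval 0.0684 to 14.2). Of 32 Mrgpr receptor genes 0 had one (interval up to 10.9%). Both intervals include the 5.69% of all coding genes. Gene length was not matched in these lists. The proximal stretch of chromosome 7 without a wild-type peak holds 747 coding genes, 218 vomeronasal receptor genes and pseudogenes and 66 Zfp genes.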
